A study of Mus musculus with 6 samples.

Results

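The T cell receptor cannot signal on its own: it relies on the invariant CD3 chains, and on kinases and adaptors that pass the signal inward. The CD3 delta, epsilon, gamma and zeta chains carry paired tyrosine motifs in their tails. The kinase LCK phosphorylates those tyrosines, the kinase ZAP-70 docks on them and phosphorylates the adaptors LAT and SLP-76, and ADAP, bound to SLP-76, links the receptor to integrin adhesion. In the spleen most of these transcripts come from T cells, but NK cells share CD3 zeta, LCK, ZAP-70 and LAT, and myeloid cells, mast cells and platelets also use SLP-76 and ADAP.

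The genes described here are Cd3d, Cd3e, Cd3g, Cd247 (CD3 zeta), Lck, Zap70, Lat, Lcp2 (SLP-76) and Fyb (ADAP). They were chosen by name, and every probe that the deposited fold-change table assigns to them was taken: 18 of its 31692 probes, for 9 of its 16361 gene symbols. Of these, 7 probes belong to the 4 CD3 chains and 11 to the 5 kinases and adaptors. The question put to them was whether the kinases and adaptors differed between the groups beyond what the CD3 chains did. All 18 were well above background on all 6 arrays, and the filter on dim probes removed none of them. A further Cd247 probe, known only by its accession, lies outside that table and is not counted among the 18; it was well above background on 4 arrays, entered the fit over all probes and differed by 0.36.

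The RNA was of spleens of female NOD mice, in which autoimmune diabetes arises spontaneously. Mice entered at 6 weeks of age and were given either 0.5 mg/kg/day of MOTS-c, a short peptide whose coding sequence lies in the mitochondrial genome, into the peritoneum, or a scrambled peptide that served as vehicle; both groups thus received a peptide injection each day. The organ was collected at an age of 18 weeks, following 16 to 18 h of fasting, and total RNA of the whole organ was labelled with Cy3. Each group has 3 arrays, called vehicle 1 to 3 and MOTS-c 1 to 3, and nothing in the labels says that they are separate mice, so p-values measure the spread between these samples, which may be technical.

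Levels are given on the log2 scale relative to the 75th percentile of the same array's signals, so that 0 is the signal of that percentile and 1 unit is a doubling. The percentile lay between 678 and 926, 61.9% to 64.0% of spots were well above background, and no spot was saturated. Vehicle 1 and vehicle 2 were on 1 slide, and vehicle 3 with the 3 MOTS-c arrays on the other. A fit with the slide as a block therefore estimates MOTS-c against vehicle 3 alone. Pancreatic acinar genes varied between arrays: Cpa1, an acinar digestive enzyme, read 3.27 in vehicle 3 and 0.55 in vehicle 1, against -5.13 to -1.24 in the other 4 arrays. Of the islet and acinar markers, Ins2 and Prss1 were too dim in both groups to be tested.

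Of the member probes, 3 read the stretches that carry the signalling tyrosines, and they show what the arrays measured. The probes are those of the array design, 60 bases each, sense strand, in mm9. In the Cd3d and Cd247 probes the capitals mark the codons of a paired tyrosine motif: a tyrosine codon, 2 codons, a leucine codon, then 6 to 8 codons and the same again. In the Lat probe they mark a tyrosine codon and, 2 codons on, an asparagine codon, the kind of site on which LAT, once phosphorylated, binds adaptors of the GRB2 family.
Cd3d at chr9:44794171-44794402, plus strand: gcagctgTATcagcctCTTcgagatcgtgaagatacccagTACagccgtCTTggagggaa
Cd247 at chr1:167786567-167787585, plus strand: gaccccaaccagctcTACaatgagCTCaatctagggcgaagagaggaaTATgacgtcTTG
Lat at chr7:133507719-133507778, minus strand: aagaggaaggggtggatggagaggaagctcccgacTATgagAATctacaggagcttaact
The Cd3d and Cd247 probes span more of the genome than their own length, so each crosses at least 1 intron. Read in any frame without a stop codon, the paired motif (with isoleucine allowed for leucine) was found in 22 of 31683 distinct probe sequences of the table, and the tyrosine and asparagine pair in 750. A match is a description of the letters. Exons and untranslated regions were not assigned to the probes, since no annotation of mm9 was used here.

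All 18 probes had higher means with MOTS-c than with vehicle, and for 15 of them every MOTS-c array lay above every vehicle array. None passed limma's test over all 33740 probes tested, at adjusted p-values from 0.0859 to 0.395. Over the whole array 0.00593% of probes passed that test, 16.3% had all MOTS-c arrays above all vehicle arrays, and 11.3% were higher at an unadjusted p under 0.05, which 9 of the 18 member probes were. A higher mean was found for 52.2% of all probes. A difference of 1 log2 unit or more was seen in 6 member probes and in 2.54% of all probes. The median log2 difference, MOTS-c minus vehicle, was 0.90 over the member probes and 0.02 over all probes tested. In whole spleen, more T cells and more of these transcripts per T cell cannot be told apart.

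The size of the differences rested on vehicle 1. That array was the lowest of the 6 for 18 of 18 member probes, as it was for 29.6% of all probes. It lay between 0.30 and 2.27 log2 units below the mean of vehicle 2 and vehicle 3. Without it the median over the member probes was 0.39, all 18 means were still higher with MOTS-c, and 12 probes, 6 of CD3 chains and 6 of kinases and adaptors, had an unadjusted limma p under 0.05. Over all probes 8.16% were higher at that p without vehicle 1, and none passed after adjustment. Blocking on the slide gave a median of 0.39 as well; 0 member probes reached an unadjusted p under 0.05 by limma, and 2.65% of all probes did so as higher. The 3 MOTS-c arrays were closer together than the 3 vehicle arrays in 18 of 18 probes, with SDs of 0.02 to 0.22 against 0.19 to 1.31. How often this held over all probes was not counted. The 3 MOTS-c arrays shared a slide, while the vehicle arrays were split between the slides.

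**Figure D1:**
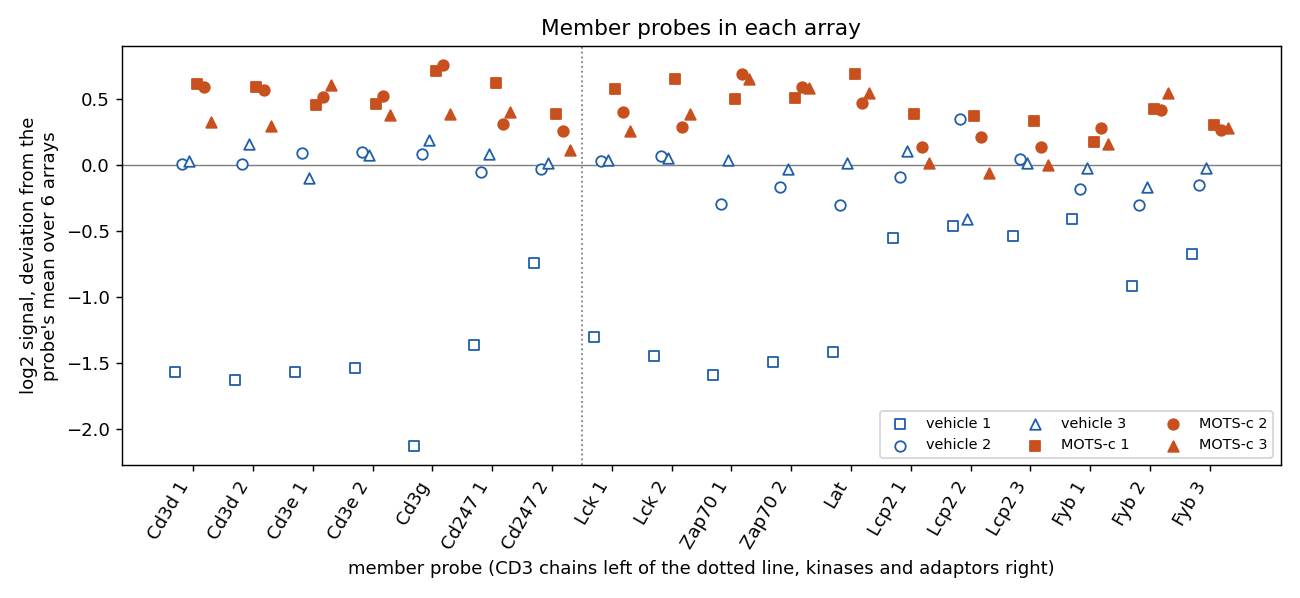
Log2 signal of each of the 18 member probes (x axis, numbered within a gene) as its deviation from the probe's mean over the 6 arrays (y axis, log2 units). Open symbols are vehicle and filled symbols MOTS-c arrays; vehicle 1, the open square, is the lowest point of every probe, and the MOTS-c points lie above all vehicle points except for the 3 Lcp2 probes.

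Among the CD3 chains, Cd3d, the delta chain, read 1.59, 3.18 and 3.20 on the vehicle arrays (in the order 1 to 3, as throughout) and 3.78, 3.76 and 3.50 on the MOTS-c arrays with the probe shown above. All MOTS-c arrays were above all vehicle arrays, and vehicle 2 and vehicle 3 were much nearer to them than vehicle 1 was. The log2 difference was 1.02 ± 0.42 (SE), a fold of 2.03, with a limma adjusted p of 0.187. The second Cd3d probe, at chr9:44794452-44794511, differed by 0.97 ± 0.45.

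Cd3e, the epsilon chain that pairs with both delta and gamma, read 1.55, 3.19 and 3.17 in vehicle and 3.56, 3.61 and 3.47 in MOTS-c with its brighter probe (chr9:44806828-44806887), numbered 2. The groups did not overlap, by a margin of 0.28, and the difference was 0.91 ± 0.42 (SE; limma adjusted p 0.225). Its other probe (chr9:44807254-44807313) differed by 1.05 ± 0.41. Without vehicle 1 these became 0.37 and 0.53.

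Cd3g, the gamma chain, had 1 probe (chr9:44777868-44777927), with values of 0.34, 2.56 and 2.66 in vehicle and 3.19, 3.24 and 2.87 in MOTS-c. It showed the largest drop in vehicle 1 of all members, 2.27 below the other vehicle arrays, and also the largest difference, 1.24 ± 0.58 (SE), a fold of 2.37 (limma adjusted p 0.228). Without vehicle 1 the difference was 0.49. Cd3e, Cd3d and Cd3g are neighbours on chromosome 9.

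Cd247 encodes the zeta chain, the receptor's main signalling tail, and lies on chromosome 1. The probe shown above, which the table assigns to the eta transcript variant, read -3.87, -2.56 and -2.43 in vehicle and -1.89, -2.20 and -2.11 in MOTS-c. The probe assigned to the zeta variant (chr1:167791567-167791626) read 1.09, 1.81 and 1.85 in vehicle and 2.23, 2.10 and 1.95 in MOTS-c. Both separated the groups. The difference was 0.89 ± 0.37 (SE; limma adjusted p 0.193) for the first and 0.51 ± 0.23 (0.217) for the second, the smallest of the CD3 chains. A test of one probe against the other was not run. Whether either probe reads only its assigned variant was not checked, so the values do not compare the variants.

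Among the kinases, Lck, which starts the cascade, differed by about as much as the CD3 chains. Its brighter probe (chr4:129225614-129225673) read 2.98, 4.31 and 4.32 in vehicle and 4.86, 4.69 and 4.54 in MOTS-c. Every MOTS-c array was above every vehicle array, and the difference was 0.82 ± 0.36 (SE; limma adjusted p 0.207). The second probe (chr4:129229196-129229255) gave 0.89 ± 0.40, and without vehicle 1 both were 0.38.

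Zap70, the kinase recruited to the phosphorylated chains, differed by as much as the CD3 chains. Its brighter probe (chr1:36839542-36839601) read 0.63, 1.93 and 2.27 in vehicle and 2.73, 2.92 and 2.88 in MOTS-c. The lowest MOTS-c array lay 0.46 above the highest vehicle array, a wider gap than any CD3 probe had. The difference was 1.23 ± 0.40 (SE), a fold of 2.35, with a limma adjusted p of 0.131. The second probe (chr1:36839315-36839374), at -0.81, 0.51 and 0.65 in vehicle and 1.19, 1.27 and 1.26 in MOTS-c, differed by 1.13 ± 0.37. Without vehicle 1 the probes of Zap70 differed by 0.74 ± 0.16 and 0.66 ± 0.14 (limma adjusted p 0.110 and 0.105), where those of the CD3 chains differed by 0.26 to 0.53. With the slide as a block the Zap70 probes differed by 0.58 and 0.59, below the dimmer Cd3e probe at 0.62.

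Lat, the membrane adaptor that ZAP-70 phosphorylates, read 0.41, 1.52 and 1.85 in vehicle and 2.52, 2.30 and 2.37 in MOTS-c. All MOTS-c arrays were above all vehicle arrays, by 0.45 or more. The difference was 1.14 ± 0.35 (SE), a fold of 2.20, with a limma adjusted p of 0.124, and 0.71 ± 0.16 without vehicle 1. With the slide as a block it was 0.55.

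Lcp2, the cytosolic adaptor SLP-76 that assembles on LAT, differed the least. Its brightest probe (chr11:33990902-33990961) read 1.06, 1.52 and 1.72 in vehicle and 2.00, 1.75 and 1.62 in MOTS-c. MOTS-c 3 lay below vehicle 3, so the groups overlapped, as they did with all 3 probes of the gene. The differences were 0.36 ± 0.21, 0.35 ± 0.25 and 0.31 ± 0.20 (SE), at limma adjusted p-values of 0.308 to 0.395. Within slide 2 the first of them was 0.07 and the second 0.58.

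The probes of Fyb, the adaptor ADAP, disagreed in size. The brightest (chr15:6610710-6613204) read 3.18, 3.41 and 3.57 in vehicle and 3.77, 3.87 and 3.75 in MOTS-c. The dimmest (chr15:6596528-6596587), which the table assigns to an Ensembl transcript and not to a RefSeq one, read -3.22, -2.60 and -2.47 in vehicle and -1.88, -1.88 and -1.75 in MOTS-c. The third (chr15:6530194-6530253) lay between -0.38 and 0.27 in vehicle and between 0.56 and 0.60 in MOTS-c. All 3 separated the groups, with differences of 0.41 ± 0.16, 0.93 ± 0.22 and 0.57 ± 0.20 (SE). The dimmest had the smallest p of the 18 member probes (limma adjusted p 0.0859), and a gap of 0.58 between the groups. Without vehicle 1 the dimmest differed by 0.70 ± 0.14 (SE), more than any CD3 probe (0.26 to 0.53). A test between these probes was not run.

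**Figure D2:**
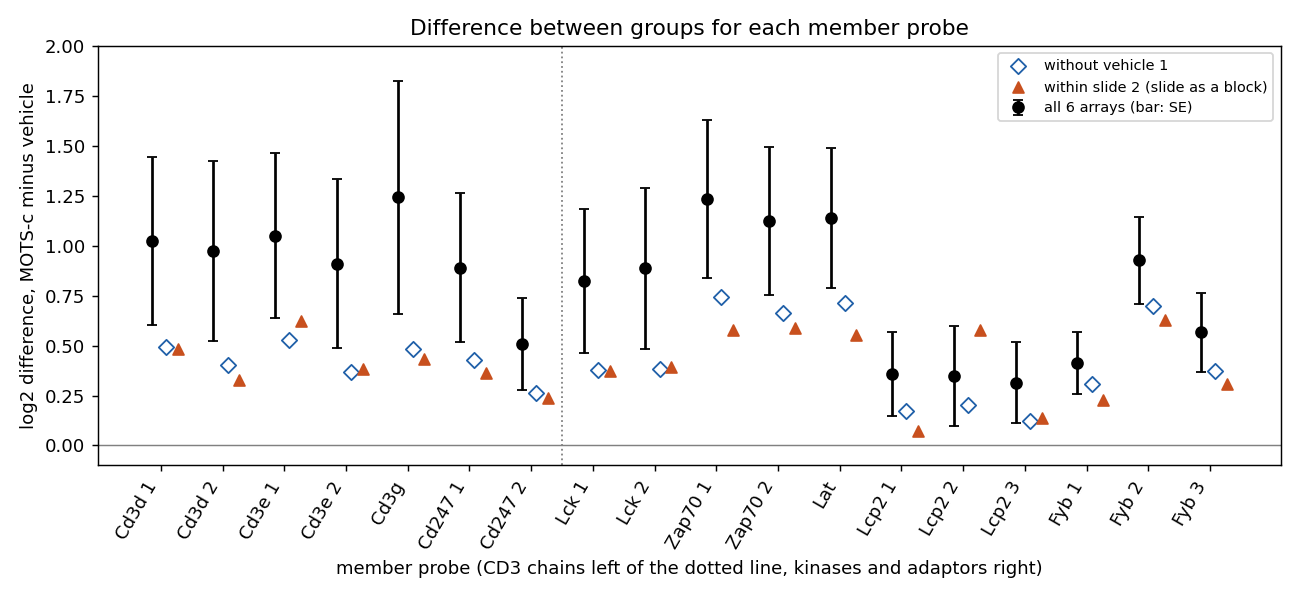
Log2 difference, MOTS-c minus vehicle (y axis), of each member probe (x axis), over all 6 arrays with its SE (black), without vehicle 1 (open diamonds) and with the slide as a block, which leaves vehicle 3 as the only vehicle array compared (triangles). All values are above 0. The Zap70 and Lat diamonds lie at 0.66 to 0.74 and those of the CD3 chains at 0.26 to 0.53. The Zap70 and Lat triangles lie at 0.55 to 0.59, within those of the CD3 chains at 0.24 to 0.62.

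To ask whether the kinases and adaptors differed beyond the CD3 chains, each was set, array by array, against the mean of Cd3d, Cd3e, Cd3g and Cd247, with 1 brightest probe per gene and all values as deviations from the probe's own mean. Zap70 was higher relative to the chains with MOTS-c, by 0.33. It stood at -0.08, -0.33 and -0.07 in vehicle and -0.04, 0.16 and 0.36 in MOTS-c, which narrowly did not overlap. With quantile normalization Zap70 stood 0.29 higher (exact permutation p 0.3). Lat was higher by 0.23, from a mean of -0.12 ± 0.22 to 0.12 ± 0.16 (SD, n = 3), with overlap. Lck differed from the chains by only -0.08, less than the SD of 0.15 between vehicle arrays. An exact permutation test (two-sided) with 3 arrays against 3 cannot go below p = 0.1, so no such difference could pass: the exact p was 0.1 for Zap70, 0.2 for Lat and 0.5 for Lck, and 0.25, 0.25 and 0.5 adjusted over the 5 genes.

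Lcp2 and Fyb, by their brightest probes, went the other way relative to the chains, by -0.55 (exact permutation p 0.1, adjusted 0.25) and -0.50 (0.2, adjusted 0.25). Here the relation rested on vehicle 1, in which the chains were lowest: Lcp2 stood at 0.96 there and at -0.13 and 0.00 in the other vehicle arrays, against -0.39 to -0.16 in MOTS-c. Without vehicle 1 the relative differences were -0.21 for Lcp2 and -0.07 for Fyb. Those of Zap70 and Lat were then 0.36 and 0.33. The choice of reference mattered: against Cd3d, Cd3e and Cd3g without Cd247, Zap70 stood 0.19 higher (exact permutation p 0.4) and Lat 0.10 higher (0.8). With the mean of all tested probes of each gene, Zap70 stood 0.23 higher (exact permutation p 0.2) and Lat 0.19 (0.3). For Cd247 this mean included the probe outside the 18. By that measure Lcp2 differed from the chains by -0.61 (exact permutation p 0.1) and Fyb by -0.32 (0.7). A further reference, Cd2, Cd5 and Cd6, T cell surface proteins outside the receptor, was chosen after the data were seen. Against it Zap70 stood 0.35 higher (exact permutation p 0.1) and Lat 0.25 higher (0.2). Lcp2 and Fyb differed from it by -0.53 (exact permutation p 0.2) and -0.47 (0.3).

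**Figure D3:**
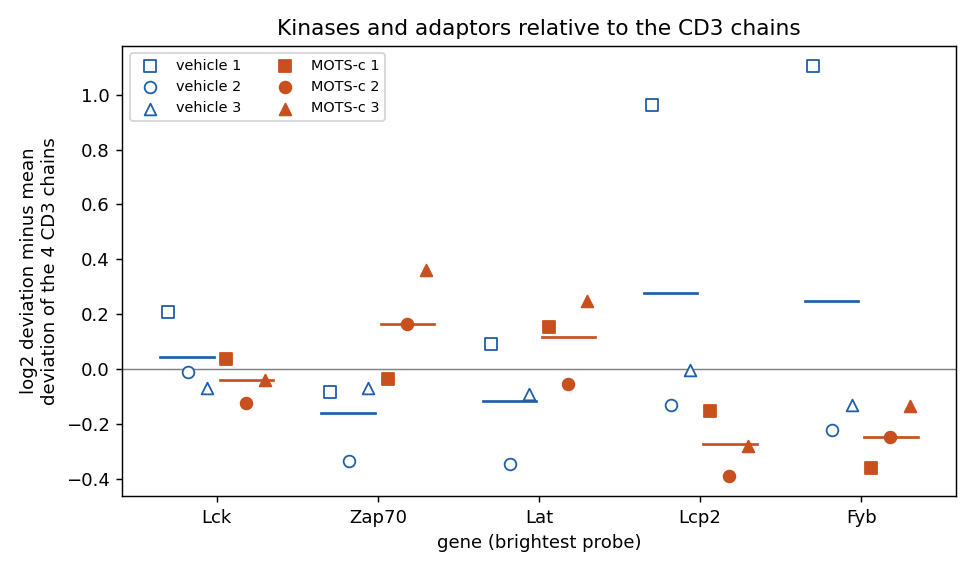
Deviation of each kinase or adaptor from its own mean, minus the mean deviation of the 4 CD3 chains (y axis, log2 units), for each gene (x axis) and array; lines are group means. Zap70 is the gene whose MOTS-c points all lie above its vehicle points, by a narrow margin. Lcp2 has them all below, and vehicle 1 stands far above the other arrays for Lcp2, at 0.96, and for Fyb.

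Beyond the 9 genes, the pathway was followed through lists of coreceptors, kinases and partners, negative regulators and downstream branches, with 1 brightest probe per gene. Of 77 listed genes 66 were tested; 65 had higher means with MOTS-c and 1, Dok1, a docking protein that restrains the cascade, a lower one (-0.24 ± 0.17, SE). None passed limma's test over all probes, 26 had an unadjusted p under 0.05, and for 37 all MOTS-c arrays lay above all vehicle arrays. Among all 16936 named genes tested, 53.0% had a higher mean, 10.5% were higher at an unadjusted p under 0.05 while 16.3% separated upward and 19.2% downward; no pathway gene separated downward. The median log2 difference was 0.63 over the pathway and 0.03 over all named genes. Without vehicle 1 the pathway median was 0.34, as it was with the slide as a block.

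The coreceptors and costimulatory receptors were all higher in mean, 9 of 9, with a median of 0.82 (0.40 without vehicle 1). Cd4 and Cd8a, which bring LCK to the receptor in helper and cytotoxic T cells, differed by 0.58 ± 0.24 and 0.70 ± 0.44 (SE), with overlapping groups for Cd8a. The second Cd8a probe gave 1.45, and the 3 Cd4 probes ran from 0.58 to 0.79. Icos and Cd28, costimulatory receptors, differed by 0.69 ± 0.25 and 0.87 ± 0.31, and Cd6, a receptor that tunes T cell adhesion and activation, by 0.88 ± 0.38. Trat1, a transmembrane adaptor of the receptor complex, differed by 1.08 ± 0.41. The constant regions of the receptor itself are not named in the table and were not used here.

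Of the other kinases and partners, 23 of 23 were higher in mean (median 0.63, and 0.28 without vehicle 1), and the sizes were uneven. Sh2d2a, a T cell adaptor that binds LCK, differed by 1.44 ± 0.36 (SE; limma adjusted p 0.0914), though its second probe gave 0.44. Prkcq, the protein kinase C of the T cell synapse, differed by 0.73 ± 0.23, and Grap, a relative of GRB2, by 0.74 ± 0.27. Fyn, the other Src family kinase of T cells, which many cell types express, differed by 0.12 ± 0.17 with overlapping groups.

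Negative regulators were higher in mean as well, 14 of 15, with a median of 0.62 (0.43 without vehicle 1). Sla, an adaptor that lowers receptor levels, differed by 0.71 ± 0.20 (SE), Ubash3a, a suppressor of receptor signalling, by 0.86 ± 0.25 (0.39 with its second probe), Lax1, a LAT-like inhibitory adaptor, by 0.74 ± 0.22, and Dgka, which removes diacylglycerol, by 0.98 ± 0.31. Their limma adjusted p-values ran from 0.110 to 0.129. The brighter Ubash3a probe was itself dim, with means of -4.26 in vehicle and -3.40 in MOTS-c, though well above background on all 6 arrays. Ptprc, the phosphatase CD45, counted on this list though it is not only a negative regulator, differed by 0.62 ± 0.30. Its 7 probes ran from -0.05 to 1.18. Ptpn22, a phosphatase of LCK and ZAP-70, differed by 0.54 ± 0.27.

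The downstream branches had the smallest median of these lists, 0.46 (0.32 without vehicle 1), with 18 of 18 higher in mean. Nfkbid, a nuclear inhibitor of NF-kB, read 0.39, 1.02 and 0.97 in vehicle and 2.26, 2.10 and 2.03 in MOTS-c. The gap between the groups was wider than in any member gene, and the difference was 1.33 ± 0.20 (SE), with a limma adjusted p of 0.0795. Egr1, an early gene of receptor signalling in many cells, differed by 0.60 ± 0.16 (0.0967), Orai1, the calcium channel subunit, by 0.43 ± 0.14 and Malt1, the paracaspase of the NF-kB branch, by 0.66 ± 0.23. Tnfaip3 and Nr4a1, which receptor signalling also induces, differed by 0.04 ± 0.31 and 0.21 ± 0.17.

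**Figure D4:**
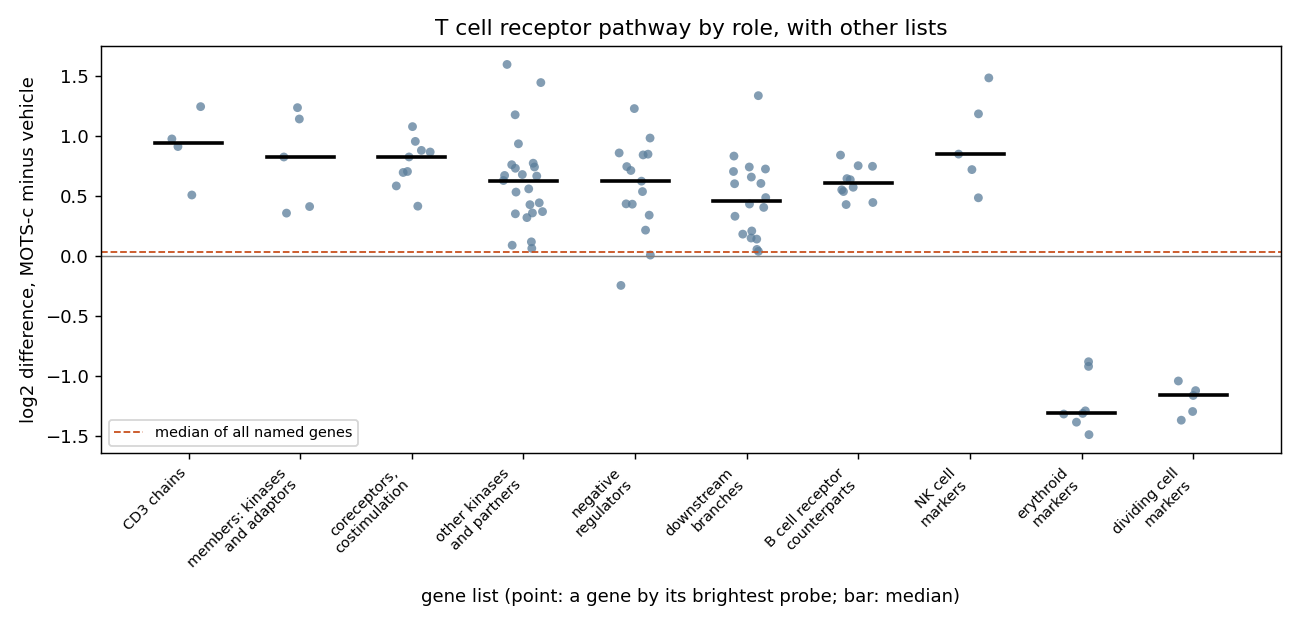
Log2 difference, MOTS-c minus vehicle (y axis), of each gene by its brightest probe, grouped by role (x axis), with list medians as bars and the median of all named genes dashed. Lists of the T cell receptor pathway, its B cell counterparts and NK cell markers lie above the dashed line except for Dok1 and Cblb, and erythroid and dividing cell markers lie below -0.8.

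Genes of other cells differed as well. The proximal genes of the B cell receptor, the counterparts of CD3, LCK, ZAP-70 and SLP-76 in B cells, were higher in mean in 10 of 10 cases with a median of 0.60 (0.30 without vehicle 1), among them Syk, the relative of ZAP-70, at 0.55 ± 0.22 (SE). B cell markers were higher in 6 of 6 (median 0.72, and 0.25 without vehicle 1), with summed levels, in multiples of the array's 75th percentile, of 47.5 to 126 for vehicle against 127 to 141 for MOTS-c. NK cell markers were higher in 5 of 5 (median 0.85, and 0.43 without vehicle 1), at 2.26 to 5.37 for vehicle against 6.32 to 7.25 for MOTS-c. Vehicle 1 was the lowest array for both lists. Erythroid markers were lower in 7 of 7 (median -1.31, and -1.06 without vehicle 1), at 431 to 716 for vehicle against 219 to 278 for MOTS-c. Dividing cell markers were lower in 5 of 5 (median -1.16, and -0.99 without vehicle 1), with 202 to 330 against 106 to 132. Vehicle 1 was the highest array for both. Neutrophil markers were higher in mean in 7 of 7 (median 0.86, and 0.82 without vehicle 1), with overlapping groups for all, at 115 to 431 for vehicle against 163 to 562 for MOTS-c. Of the dendritic cell markers 4 of 5 tested were higher (median 0.60, and 0.18 without vehicle 1; Xcr1 was too dim to be tested), at 76.7 to 100.2 against 76.7 to 90.9. Macrophage markers were higher in 4 of 7 (median 0.09, and 0.00 without vehicle 1). Platelet markers were higher in mean in 5 of 5 (median 0.11), but their median was -0.10 without vehicle 1. The part of these cells in the differences of the member genes was not tested. Fcer1g, a chain that replaces CD3 zeta in NK and myeloid receptors, differed by 0.15 ± 0.17.

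The named genes outside these lists whose pattern over the 6 arrays was most like the mean of the 9 members were Dglucy, Klra17, Ppp1r10, Stn1, Tes, Dbp, Rinl and Il16, with Pearson r of 0.9986 to 0.9999 over 6 arrays. They differed by 0.39 to 1.05 between the groups. With 6 arrays on 1 pattern a high r is common: 12.1% of 16932 named genes had r above 0.9. An r above 0.99 was rarer, at 0.69% of them. Among the members, r with that mean was 0.93 for Fyb, 0.94 for Lcp2 and 0.98 to 1.00 for the other 7, each of which is part of the mean.

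The members do not share a position in the genome beyond the chromosome 9 cluster, so their start sites were read for shared letters. RefSeq windows from 250 bases before to 50 after a start (GRCm38.p6) were found for 9 of the 9 genes, 12 windows in all, and searched on both strands for 6 motifs. The E-box CAGGTG was in windows of 6 genes (Cd3d, Cd3e, Cd3g, Cd247, Lck and Zap70), 8 of the 12 windows, and in 20.2% of all 32851 windows. The ETS core GGAAGT was in those of 5 genes (Cd3d, Cd3e, Cd247, Lck and Zap70), 6 of the 12 windows, and in 23.8% of all. The GATA core AGATAA was in windows of Cd3g, Lcp2 and Fyb (3 of 12 windows, and 11.2% of all). Windows of Lck, Zap70 and Lat held the RUNX core TGTGGT (3 of 12 windows, and 16.8% of all). The TCF core CTTTGA was in windows of Cd3d, Cd247, Zap70 and Lcp2 (4 of 12 windows, and 16.0% of all). No window of a member held TATAAA, the TATA box core (13.6%). None of the motifs contains another, though their ends can overlap, and a match is not a site in use. The 250 bases before the start are shown for the chromosome 9 neighbours Cd3d and Cd3g, which are transcribed away from each other, and for Lcp2, the member that differed least, with the matches in capitals.
Cd3d at chr9:44981536-44981785, plus strand: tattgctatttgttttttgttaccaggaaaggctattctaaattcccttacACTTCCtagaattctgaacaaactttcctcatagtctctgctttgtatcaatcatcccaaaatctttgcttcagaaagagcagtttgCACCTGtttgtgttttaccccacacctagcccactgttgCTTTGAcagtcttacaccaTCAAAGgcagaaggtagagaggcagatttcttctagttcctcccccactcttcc
Cd3g at chr9:44980432-44980681, minus strand: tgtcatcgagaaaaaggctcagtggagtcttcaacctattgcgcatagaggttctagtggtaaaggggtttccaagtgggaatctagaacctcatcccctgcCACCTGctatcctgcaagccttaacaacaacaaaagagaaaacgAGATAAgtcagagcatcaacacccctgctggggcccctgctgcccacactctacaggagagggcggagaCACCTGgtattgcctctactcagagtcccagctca
Lcp2 at chr11:34046678-34046927, plus strand: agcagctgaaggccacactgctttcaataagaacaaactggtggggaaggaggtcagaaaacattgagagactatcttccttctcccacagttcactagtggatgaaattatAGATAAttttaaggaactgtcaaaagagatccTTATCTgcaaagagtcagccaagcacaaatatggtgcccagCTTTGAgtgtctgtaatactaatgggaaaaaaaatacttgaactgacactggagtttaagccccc
The Cd3d stretch holds an ETS match, an E-box and a pair of TCF matches, and the Cd3g stretch a GATA match and a pair of E-boxes. That of Lcp2 holds a pair of GATA matches and a TCF match, with neither CAGGTG nor GGAAGT on either strand. Other forms of the E-box and of the ETS core were not searched.

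In the authors' deposited table the signed fold of MOTS-c over vehicle was positive for all 18 probes, from 1.25 for 2 probes of Lcp2 to 2.53 for Cd3g. Their unadjusted p was under 0.05 for 1 of them, the brightest Fyb probe (0.0481), and the smallest adjusted p was 0.370.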

How the data were processed

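Per the file headers, Agilent Feature Extraction 11.0.1.1 turned Cy3 scans into a processed signal intensity per spot, background-subtracted within each array. The deposited table holds the authors' log2 values, quantile normalized between arrays as the values show, a signed fold as a score, and p-values of a test that is not given in the sources used here. Group and number came from titles; the descriptions of vehicle 3 and MOTS-c 3 give other numbers. Outlier spots were left out, spots of a probe averaged, and log2 intensity scaled to each array's 75th percentile. Testing took probes that every array of at least 1 group showed well above background. They were tested with limma 3.58.1 (R 4.3.3), two-sided, with Benjamini-Hochberg adjustment over 33740 probes and a threshold of 0.05. The script was tested on simulated data. The scanner files used hold no mean spot signal, so normexp (offset 50) used median signals. Symbols came from the table's gene IDs, or RefSeq accessions (GRCm38.p6).

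Alternatives covered scaling, background, filter, slide and replicate blocks, the deposited values and each array left out. Named are all member probes, up to 4 genes with the smallest unadjusted p of each pathway list, a panel taken whatever its values (Cd4, Cd8a, Cd28, Fyn, Ptprc, Ptpn22, Syk, Fcer1g) and the 8 closest patterns; Tnfaip3, Nr4a1, Dok1, Cblb and Cpa1 were added after their values were seen, and 1 gene that the rule names is not reported here. The members and lists were chosen with earlier results of these data known. Same-numbered arrays did not deviate together (r of -0.17, 0.01 and -0.09), and the main fit did not pair them. With 3 arrays a group these correlations cannot exclude a pairing.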

Additional observations from a re-analysis of the deposited data

How the results depend on the processing

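All 261 differences of single member probes under the alternatives stayed above 0, from 0.07 to 1.65, and none of the 18 passed over all probes under any. Their median was 0.96 with quantile normalization, 0.80 with normexp and the 75th percentile, 0.39 with the slide as a block and 0.39 to 1.14 with 1 array left out, the lowest being without vehicle 1. Of all probes 2 passed; the count was 0 with normexp and quantile normalization, with probes required on all 6 arrays, with no filter, with the deposited log2 values and with the replicate block, 1 with the slide as a block, 584 with normexp and the 75th percentile, and 0 to 1113 with 1 array left out (1113 without vehicle 2, 39 without vehicle 3, 0 without vehicle 1 or MOTS-c 3, and 1 without MOTS-c 1 or MOTS-c 2). The replicate block left the member median at 0.90. In the wider pathway 1 gene, Nfkbid, passed with normexp and the 75th percentile and without vehicle 2, and 0 to 1 passed with 1 array left out. Relative to the CD3 chains, Lck turned to 0.0399 with normexp and quantile normalization and to 0.0279 with the slide as a block. Zap70 and Lat stayed above the chains, at 0.19 to 0.43 and 0.10 to 0.33, both lowest with Cd247 left out of the reference, and Lcp2 and Fyb below. The exact permutation p of Zap70, 0.1 in the main setting, was 0.2 with normexp and the 75th percentile. It was 0.3 with quantile normalization, with normexp and quantile normalization, and with the deposited log2 values. The cause of these shifts was not tested. Only 3 arrays a group and 1 vehicle array on slide 2 limit the precision.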
